A study of Homo sapiens with 3 samples.

Results

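The array of untreated MM1S cells, a human line from multiple myeloma, was described on its own, without reference to drug-treated cells. It is 1 of 3 arrays in the series and was chosen by its title, which names untreated cells, and its label of 0 h with FK866. The other arrays are of cells given 10 nM FK866, an inhibitor of the NAD salvage enzyme NAMPT, and were not analysed here. MM1S is an established glucocorticoid-sensitive line that carries a translocation joining MAF to the immunoglobulin heavy chain locus and makes a lambda light chain. The cells grew in RPMI-1640 with fetal bovine serum, antibiotics and glutamine, and no agent was added to this culture as far as the labels say. For the array, 1 µg of total RNA was turned into biotin-labelled cRNA by the standard Affymetrix procedure. With 1 array there is no replicate, no value has an error between cultures, and no test was run.

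A plasma cell is the antibody-secreting end stage of the B cell lineage. During its formation IRF4, PRDM1 and XBP1 switch off the B cell programme and enlarge the endoplasmic reticulum (ER), where antibody chains are translocated, folded and glycosylated. Myeloma is a tumour of plasma cells, and most cases carry a cyclin D gene or an upstream factor such as MAF under abnormal control.

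The array carried a value for 19775 genes. Each gene has the deposited intensity of its brightest probe set, in arbitrary units, called its signal. The signal of a probe set depends on its probes as well as on its transcript, so it places a gene in a level class of this array and does not count transcripts. Of the 19775 genes, 6843 (34.6%) had every probe set below 16, 8808 (44.5%) reached 64 and 2331 (11.8%) reached 1024. Genes below 16 are called below the floor and have no order among themselves. Genes of 1024 or more, a log2 signal of at least 10, are called bright. The median gene had a signal of 37.5, and 510 genes (2.58%) reached 4096. The bright genes held 74.99% of the summed gene signal and the 100 highest genes 12.6%.

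Genes that plasma cells are not known to make gave the level of background. Of 100 olfactory and taste receptor genes, 81 were below the floor, their median signal was 7.25 and their 95th percentile 29.1. The highest of them was the taste receptor TAS2R14, whose brightest probe set read 61.5. The level of 64 was set just above this value after it was seen, so that none of the 100 reach it follows from the choice. Of 134 marker genes of 8 other lineages and tissues, 84 were below the floor, 126 were below 64 and 2 were bright, with a median signal of 9.9. Signals between 16 and 64, which 4124 genes (20.9%) had, overlap these families.

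Control probe sets gave the response of the array. The hybridisation spikes bioB, bioC, bioD and cre, added in rising amounts, had median signals of 57.6, 1158, 4786 and 12262. The trp control probe sets read 1.3 to 7. The ratio of 3' to 5' signal was 1.18 for GAPDH and 4.77 for ACTB. Probe sets of the same gene differed widely: over 10523 genes with several, the pooled SD was 1.67 on the log2 scale. Of 1677 bright genes with several probe sets, 583 (34.8%) had a second bright one and 392 (23.4%) had one below the floor. A gene with more probe sets was more often bright: 7.07% of 9252 genes with 1 probe set were, and 21.8% of 2728 genes with 4 or more.

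The 4 genes chosen as markers of the line were all bright by their brightest probe set, against 11.8% of all genes. XBP1, the transcription factor that drives the secretory programme, read 8109.6 in its brighter probe set (rank 151) and 8 in the other. MAF, a basic leucine zipper factor and the oncogene of this line's translocation, read 3958, 1759.5, 1585, 164, 24.6 and 20.7 in its 6 probe sets. SDC1, the surface proteoglycan CD138 used to recognise plasma cells, read 1717 and 1554. IRF4, which myeloma cells depend on, read 1698, 56.7 and 0.7. SDC1 was the only one of the 4 whose probe sets all lay in the bright class, and IRF4 and XBP1 each rested on 1 bright probe set. By the mean of a gene's probe sets 25% of the 4 were bright, against 5.31% of all genes. Because the 4 were chosen as markers of these cells, their levels describe the array and do not test its label.

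Among transcription factors of the plasma cell, 10 of 16 measured genes reached 1024 by their brightest probe set, 0 were below the floor, and the median log2 signal was 10.55 against 5.23 for all genes. Only 3 of the 10 had a second bright probe set, and by the mean of a gene's probe sets 6.25% of the list was bright, against 5.31% of all genes. PRDM1, the repressor that ends the B cell programme, read 3945, 466 and 143. POU2AF1, a coactivator at octamer elements of immunoglobulin promoters, read 6019.9 and 16.7. MEF2C, a MADS box factor, read 5751, 2771 and 418, and the E protein TCF3 reached 1419 with 14 probe sets, the lowest at 6.9. ELL2, an elongation factor that favours the secreted form of immunoglobulin mRNA, read 1249 in its brightest probe set, and CREB3L2, an ER-bound factor of secretory cells, 1575. KLF13 reached 2219. The Ikaros factors that lenalidomide sends for degradation were in the middle classes, IKZF1 at 818 and IKZF3 at 533, 394 and 226. KLF2 reached 755 and FOXO1 121. POU2F2, which encodes the octamer factor Oct-2, had 7 probe sets between 6.9 and 37.0, and ZBTB20 had 12 between 2.8 and 30.5, so both lay in the range of the receptor genes.

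Of 22 genes of plasma cell surface and secretory identity, 18 were bright, 0 were below the floor and the median log2 signal was 11.72. JCHAIN, which links antibody multimers, read 12686 on its single probe set (rank 37). TNFRSF17, the receptor BCMA, read 7659.7, and SLAMF7 read 3752, 1130.1 and 457. MZB1, an ER cochaperone of antibody assembly, read 4274 and 3794, and SEC11C, a signal peptidase subunit, 7237 and 215. TENT5C, a poly(A) polymerase often lost in myeloma, read 10027 and 2705. The adhesion molecules CD44 and CD47 reached 6264 and 4205, the integrin ITGA4 1924 and the chemokine receptor CXCR4 3031, the last with 2 further probe sets at 684 and 659.7. CD28, a T cell costimulator also found on myeloma cells, read 2218, 235 and 216. The membrane proteins CAV1 (2848 and 1664) and CD9 (5947, 13.9 and 4.8) were bright as well. DERL3 reached 606 and CD38 575, the latter on 1 probe set. CD27, a memory B cell and plasma cell receptor, read 22.6, and FCRL5 had 5 probe sets between 7.1 and 16.3. CD27 and FCRL5 were thus the members of this list that did not rise above the receptor genes.

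Among immunoglobulin constant genes, read only by probe sets annotated to 1 gene, lambda was bright and kappa and the measured heavy chains were not. IGLC1, a lambda constant region gene, had the highest signal of all 19775 genes, 19748, and a second probe set at 10049.9, while its other 7 lay between 1.2 and 49.2. IGLL5, which shares sequence with the lambda constant regions, read 2463, 11.5 and 4.5. The kappa constant gene IGKC had 8 probe sets between 1.2 and 43.3. Among heavy chains, IGHM had 5 probe sets from 1.9 to 57.7, IGHD 5 from 1.1 to 27, IGHG1 5 from 1.8 to 25.6 and IGHA1 2 at 1.5 and 2.7. Lambda was thus the only constant region class with a bright probe set among those annotated to 1 gene. Immunoglobulin genes are near-identical copies and their probe sets can be shared. Probe sets annotated to several genes were left out, and with them included the median log2 signal of this list went from 5.44 to 7.42. The bright share then went from 33.3% of 9 measured genes to 46.2% of 13.

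The B cell programme was near the level of genes at large as a list, with several of its defining factors low. Of 34 measured members, 11 were below the floor (32.4%, against 34.6% of all genes), 17 reached 64 (44.5% of all genes did) and 4 were bright (11.8%, against 11.8%). The median log2 signal was 5.89 against 5.23 for all genes, and it lay below that of all genes by the mean or the median of a gene's probe sets and among genes with at least 2 probe sets. PAX5, the factor that holds B cell identity, read 1.5 and 1.3. EBF1, an early B cell factor, had 4 probe sets from 1.2 to 14.2, and SPIB read 23.1 and 19.8. Among surface genes, MS4A1, which encodes CD20, had 4 probe sets from 2.9 to 8.5, CD22 had 4 from 0.5 to 7.3, CD24 had 6 from 0.4 to 9.6 and CD72 read 1.1. The antigen receptor chains CD79A and CD79B reached 30.1 and 110.3. BCL6, the germinal centre repressor, read 64, 17 and 0.7. BACH2, another repressor of B cells, stood higher at 269 and 98.2, and the complement receptor CR2 read 185 and 1. The bright members were HLA-DRA (4863 and 2960), HLA-DPA1, TCF4 and the invariant chain CD74. TCF4, an E protein, had 8 probe sets from 131 to 3325. Signalling genes of the antigen receptor lay in the middle classes, with BLNK at 586, LYN at 539, SYK and PLCG2 at 457 and BTK at 193.

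**Figure D1:**
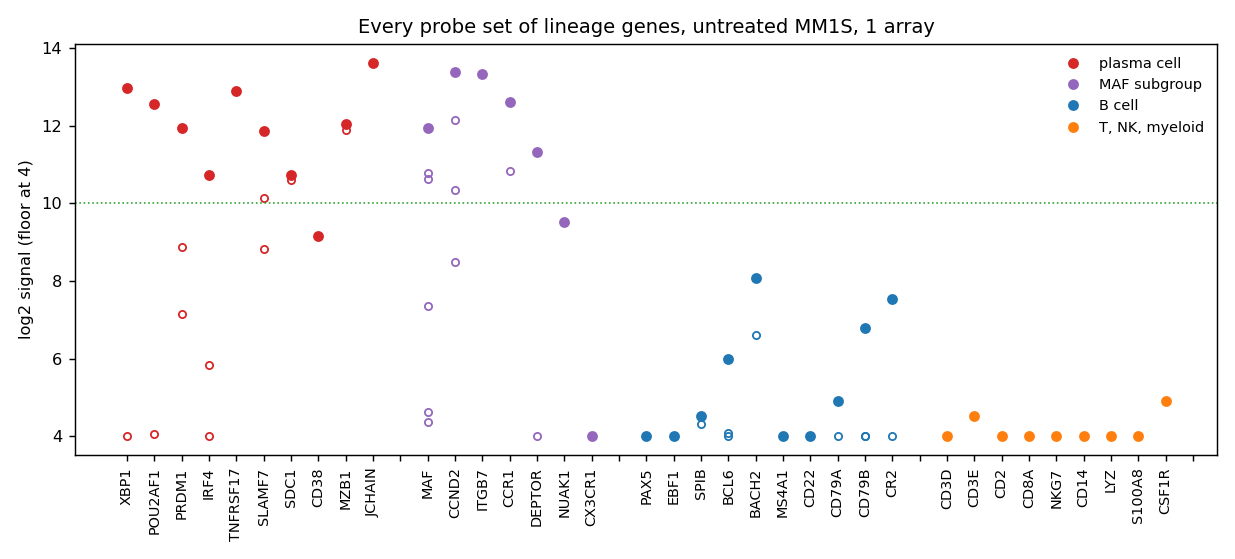
Log2 signal (vertical axis, floor at 4) of every probe set of lineage genes (horizontal axis); the filled point is the brightest probe set of a gene, open points are its others, and the dotted line marks a log2 signal of 10. The 10 B cell genes drawn and the 9 T, NK or myeloid genes drawn stay below the line. Left out are the 4 bright ones of the B cell list (HLA-DRA, HLA-DPA1, TCF4 and CD74). Of the 10 plasma cell genes drawn 9, all but CD38, have a probe set above the line. Lower members of the plasma cell lists, such as POU2F2, ZBTB20, CD27 and FCRL5, are not drawn. Of those lists 10 of 16 transcription factors and 18 of 22 surface and secretory genes were bright.

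Antigen presentation by class II was uneven. Of 12 genes, 5 were bright: HLA-DRA, HLA-DPA1 (3540, 753 and 242), CD74 (2304, 41.4 and 15.1), HLA-DRB1 (1509) and HLA-DPB1 (1145 and 31.9). HLA-DMA, a peptide editor, read 606. CIITA, the coactivator that class II transcription needs, read 54.7, 25.6 and 6.4, inside the range of the receptor genes. HLA-DQB1 had 7 probe sets from 2.7 to 88.6 and HLA-DQA1 3 from 0.2 to 5. Of 12 class I and processing genes 7 were bright, among them B2M (14169), HLA-B (4922) and HLA-C (4792), and the median log2 signal was 10.25. The bright share was 25% by the mean of a gene's probe sets, and 12.5% of the 8 genes left without cross-hybridising probe sets.

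Genes of the MAF subgroup of myeloma were mostly bright. From published background, MAF raises CCND2, ITGB7, CCR1, NUAK1, DEPTOR and CX3CR1 in myeloma. CCND2, the cyclin D of this subgroup, read 10658, 4525, 1311 and 358. ITGB7, an integrin chain that binds E-cadherin and stroma, read 10409 on 1 probe set, and CCR1, a chemokine receptor, 6253 and 1815. DEPTOR, an inhibitor of mTOR, read 2560.4 and 11.8 and the kinase NUAK1 740.4. CX3CR1 read 13.3 and 13.1, so 1 of these 6 genes was below the floor and 4 were bright. The genes that mark other subgroups were not bright. CCND1 read 93.2 and 77.9, CCND3 429 and 5.5, FGFR3 5.8 and 5.2, and NSD2, a histone methyltransferase, had 6 probe sets from 74.4 to 779.7. MYC read 5996 on 1 probe set, while MYCN had 10 from 0.9 to 51.5 and MYCL read 15.6 and 6.6. The secreted Wnt antagonists DKK1 and FRZB reached 82.4 and 14.3. In all, 6 of 17 measured genes of this list were bright and 4 below the floor.

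Antigens used or tried as targets of therapy fell in every class: 11 of 31 were bright and 1 was below the floor. Besides TNFRSF17, SLAMF7 and SDC1, they included GPRC5D (1035), the complement regulators CD46 (4735, 289.6 and 189) and CD59 (5 probe sets, 90.5 to 4689), CD48 (3062 and 111), LAMP5 (2641), SEMA4A (2452 and 269) and the transferrin receptor TFRC (6949). LY9 reached 640.2, the death receptors TNFRSF10A and TNFRSF10B 769.7 and 286, and CD70 486. TACI, encoded by TNFRSF13B, read 207, and the BAFF receptor TNFRSF13C 2.4. NCAM1, the adhesion molecule CD56, had 7 probe sets from 0.6 to 31.8. ICAM1 reached 38.2, CD274, which encodes PD-L1, 33.1 and CD80 19.5.

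Both chains of the interleukin 6 receptor were bright. IL6R read 4617, 2190.2 and 25.9, and IL6ST, the shared chain gp130, had 7 probe sets from 1.7 to 4964. Interleukin 6 is a growth factor of myeloma, and its own gene IL6 read 14.5, below the floor. Of 46 measured receptor genes, 8 were bright (17.4%, against 11.8% of all genes). The others of the 8 were CCR1, CXCR4, CSF2RB (1592), IL10RA (1445), IFNAR2 (1087) and IFNGR2 (1034). The insulin-like growth factor receptor IGF1R read 210.0, 138, 43.3, 17.6 and 2.2, and the insulin receptor INSR reached 384. Receptor tyrosine kinases of other lineages were low: KIT read 2.1, FLT3 3.6, KDR 0.6 and PDGFRB 3.3, and EGFR had 9 probe sets from 1.9 to 24.9. The B cell homing receptors CCR7 (1.5), CXCR5 (8.7) and S1PR1 (3.5) were below the floor, whereas CXCR4, which also guides B cells, was bright. CCR10, found on IgA plasma cells, read 621 and CCR2 612. Among 29 secreted signals CXCL10, an interferon-induced chemokine, was the only bright one at 3303 (3.45%, against 11.8% of all genes). Below the floor were 10 of the 29 (34.5%, against 34.6% of all genes), so that share was near the level of genes at large. The chemokines CCL5 and CCL4 reached 928 and 828, IGF1 507, VEGFA 275 and IL15 230.1, whereas TNF and CXCL8 reached 2.1 and LTA 2.

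The machinery that feeds the ER was bright nearly throughout. Of 37 genes for the translocon, signal recognition, signal peptidase and N-glycosylation, 31 were bright (83.8%, against 11.8% of all genes), 0 were below the floor and the median log2 signal was 12.03. SPCS1, a signal peptidase subunit, read 11286, SRP9 of the signal recognition particle 10434, and SEC61B, a translocon subunit, 8371 and 31.5. RPN2, a subunit of the oligosaccharyltransferase, had 3 probe sets from 4889 to 8862, and SSR1 had 6 from 948 to 8872. SEC61A2 was the only member below 64, at 47, with the pore subunit SEC61A1 at 1916. Of 30 ER chaperones and disulfide enzymes, 23 were bright, with a median log2 signal of 11.38. HSPA5, the chaperone BiP, read 9397 and 356, HSP90B1, which encodes GRP94, 9008 and 384, and PDIA6 had 4 probe sets from 4626 to 7080.0. The prolyl isomerase PPIB read 10159 and 8297. CALR read 1277 and CANX 6332. PDIA2, a pancreatic isomerase, was the only member below the floor, with 3 probe sets up to 2.

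Promoters of several of these genes hold known ER stress motifs, shown here because these lists held many bright genes. The ER stress element, to which ATF6 binds with NF-Y, is CCAAT, 9 bases and CCACG. Either strand was searched from 250 bases before to 50 after the RefSeq start site (GRCh38.p14). It was found in 6 of 28 promoters of ER chaperones (21.4%) and in 22 of 27195 promoters of the whole table (0.0809%). The genes with it were HSPA5, HSP90B1, CALR, CANX, CRELD2 and ERO1B, of which 5 were bright and ERO1B read 92.7. In the list of ER-associated degradation and stress sensors, XBP1 was the only one of 22 with the element. HSP90B1 had it at 2 places. The matches are in capitals, on the gene's strand, so that a match on the other strand starts with CGTGG.
HSPA5, chr9:125241371-125241429, minus strand: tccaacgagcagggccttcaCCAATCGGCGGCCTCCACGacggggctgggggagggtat
HSP90B1, chr12:103930196-103930254, plus strand: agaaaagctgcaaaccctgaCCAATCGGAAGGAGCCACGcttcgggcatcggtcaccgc
HSP90B1, chr12:103930301-103930359, plus strand: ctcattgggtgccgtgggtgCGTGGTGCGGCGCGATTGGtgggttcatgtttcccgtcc
CALR, chr19:12938364-12938422, plus strand: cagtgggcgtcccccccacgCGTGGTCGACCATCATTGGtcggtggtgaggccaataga
CANX, chr5:179698758-179698816, plus strand: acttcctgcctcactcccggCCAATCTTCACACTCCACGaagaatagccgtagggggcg
CRELD2, chr22:49918534-49918592, plus strand: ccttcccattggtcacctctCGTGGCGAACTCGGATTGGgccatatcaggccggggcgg
XBP1, chr22:28800583-28800641, minus strand: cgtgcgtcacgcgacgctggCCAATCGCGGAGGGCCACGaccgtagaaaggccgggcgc

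The match starts 66 bases before the start site in HSPA5 and 52 before it in XBP1. A match is a run of letters and not a measured binding site, and genes without it may hold other forms of the element. The element contains CCAAT, which alone was in 71.4% of the ER chaperone promoters and in 35.7% of all promoters.

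Of 37 genes of COPII, COPI and Golgi transport, 17 were bright and 0 were below the floor, with a median log2 signal of 9.87. TMED9, a cargo receptor, read 6461 and 1763, COPB1, a subunit of the COPI coat, 5047 in its brightest probe set, and LMAN1, the receptor ERGIC-53, 4937. KDELR1, which returns ER proteins, reached 2419, and KDELR3 32.8. The core TGACGTGG, an element to which XBP1 and ATF6 bind, was in 9 of 34 promoters of this list (26.5%) and in 0.798% of all promoters. It was also in 10.7% of the ER chaperone, 9.09% of the ER-associated degradation and 6.25% of the translocon promoters. Its other strand, CCACGTCA, contains the CCACG of the ER stress element, but none of the 9 promoters held the full element. The 9 genes were COPB1, COPB2, SEC24A, COPA, SEC16A, SEC23A, ARF1, STX5 and KDELR3, with signals from 32.8 to 5047, of which 3 were bright. Windows that end before the start site show the core in capitals for 4 of them.
COPB1, chr11:14499832-14499879, minus strand: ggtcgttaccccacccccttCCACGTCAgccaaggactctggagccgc
COPB2, chr3:139389816-139389863, minus strand: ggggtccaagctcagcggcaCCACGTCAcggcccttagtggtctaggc
SEC24A, chr5:134648586-134648633, plus strand: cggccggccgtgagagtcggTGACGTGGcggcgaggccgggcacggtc
KDELR3, chr22:38468030-38468077, plus strand: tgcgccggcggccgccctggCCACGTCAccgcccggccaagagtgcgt

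Signals of these 4 genes were 5047, 2378, 1546 and 32.8, so the printed promoters belonged to bright and dim genes. Across the array the core was in 1.45% of promoters of bright genes. It was in 0.863% of those between 16 and 1024 and 0.941% of those below the floor.

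Sensors and effectors of the unfolded protein response were present at several levels. Of 26 genes of ER-associated degradation and stress sensing, 15 were bright and 1 was below the floor. The sensor kinases ERN1, which encodes IRE1 and splices XBP1 mRNA, and EIF2AK3, which encodes PERK, read 1607 and 2508 in their brightest probe sets, the other one of EIF2AK3 being at 3.9. ATF6 had 4 probe sets from 217 to 855. HERPUD1, an ER membrane protein of degradation, read 9968 and 58.1, and UBE2J1, an ER ubiquitin conjugating enzyme, had 6 from 77.3 to 6073. ATF4 read 4968, whereas DDIT3, the death-linked factor CHOP, read 102, PPP1R15A 92.4 and TRIB3 214. The epithelial paralog of IRE1, ERN2, reached 41.4. The proteasome, which degrades the exported proteins, had 28 of 36 genes bright and a median log2 signal of 11.46. PSMB5, the subunit that bortezomib binds, read 1072, and the immunoproteasome subunits PSMB8, PSMB9 and PSMB10 read 877, 954 and 1674. The testis subunit PSMA8 read 3.

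**Figure D2:**
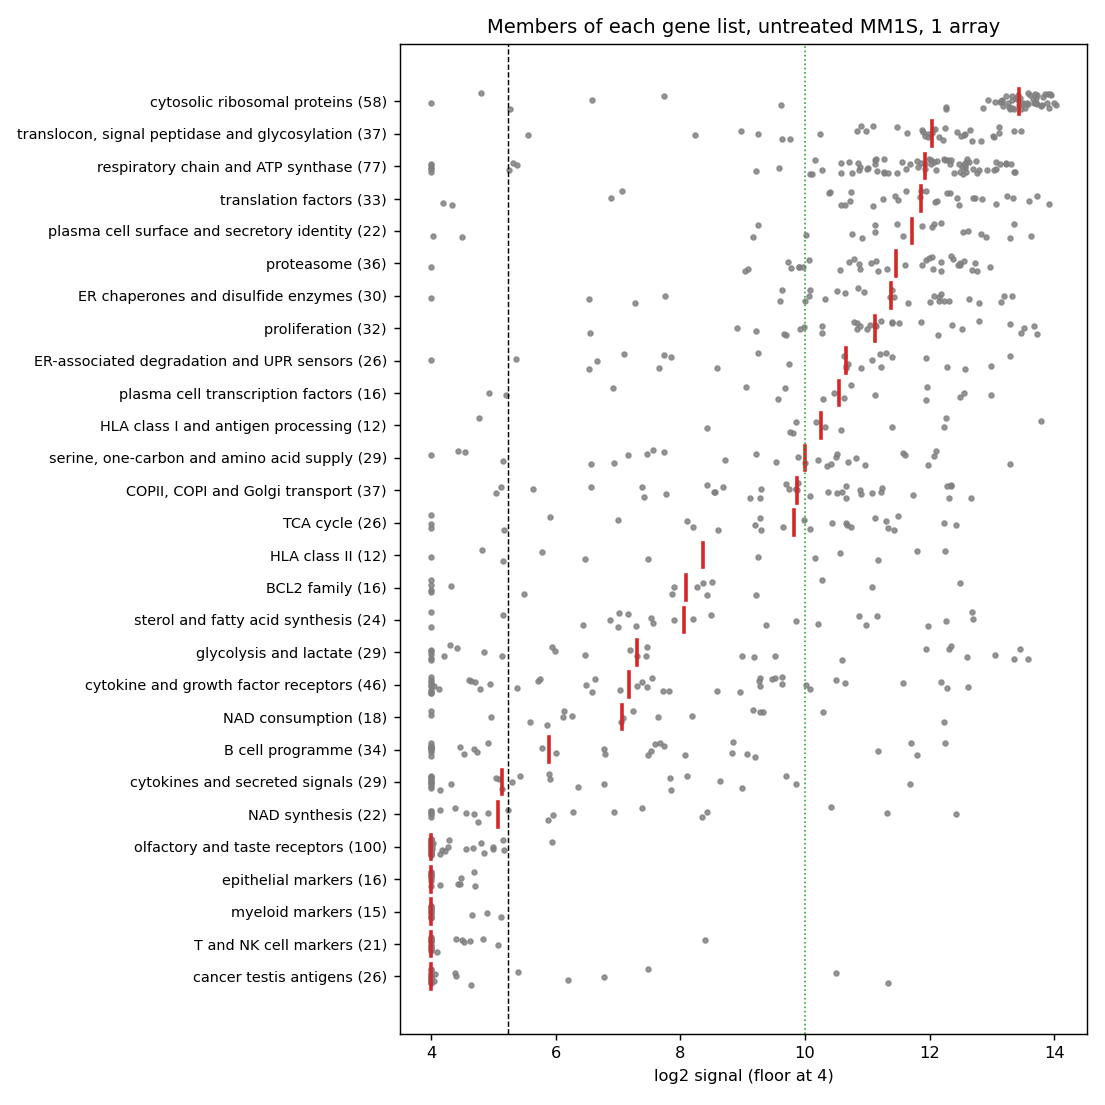
Log2 signal of each measured member (points, horizontal axis, floor at 4) of 28 gene lists (vertical axis, number of members in brackets); red bars are list medians, the dashed line is the median of all genes (5.23) and the dotted line a log2 signal of 10. The ribosomal list has the highest median drawn (13.43, but 8.43 without cross-hybridising probe sets), and epithelial, myeloid, T and NK, cancer testis and receptor lists have theirs at the floor.

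Of 58 genes named as cytosolic ribosomal proteins, 52 were bright and the median log2 signal was 13.43. Without cross-hybridising probe sets it was 8.43, with 38.2% of 34 genes bright, below the 11.28 of the translocon list in that setting. RPS19 read 16694.5 and 13831 in its brighter probe sets, and RPS4X read 15536 and 13260.1. In probe sets annotated to 1 gene, a few members lay far below: RPLP2 reached 95.7, RPL27A 213 and RPL36A 27.8. The tissue-specific RPL3L reached 0.8 and RPL10L 38.5. With probe sets of several genes included, 95.9% of 73 ribosomal genes were bright, against 89.7% of 58 without them. A low reading here can thus reflect which probe sets were read. RPLP1 showed how far probe sets of a ribosomal gene can differ, with 14757 and 1.7. Of 33 translation factors 29 were bright, among them EEF1A1 (15460.0), TPT1 (5 probe sets, 10079.5 to 13470.0) and EEF2 (10319). The muscle and nerve form EEF1A2 read 18.2. In the promoters the ETS-type core ACTTCCG was found in 38% of 50 ribosomal and 41.9% of 31 proteasome promoters, against 7.23% of all promoters and 17.2% of those of bright genes. It was in 26.5% of the vesicle transport, 25% of the translocon and 21.4% of the ER chaperone promoters.

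Proliferation genes were bright as well, with 25 of 32 at 1024 or more and 0 below 64. RRM2, the inducible subunit of ribonucleotide reductase, read 13466 and 10777. TYMS, the thymidylate synthase, reached 10032, CDK1 7078, PCNA 5875, TOP2A 3704 and MKI67 2034. The 7 that were not bright were TPX2 (968), CDC20 (825), TK1 (809), CENPE (594.5), AURKB (482), PLK1 (93.7), a mitotic kinase measured by 1 probe set, and AURKA (1017). Inhibitors of the cyclin-dependent kinases differed: CDKN1B, which encodes p27, read 4713, CDKN1A 591, CDKN1C reached 118, CDKN2A 23.9 and CDKN2B 0.7. CDK6 reached 2819, CDK4 1453 and RB1 529.

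In the BCL2 family 3 of 16 genes were bright (18.8%, against 11.8% of all genes) and 4 below the floor (25%, against 34.6%). By the mean or the median of a gene's probe sets 0% of the list was bright, against 5.31% and 5.90% of all genes. MCL1, the survival factor that myeloma cells mainly use, read 5759.9, 3621, 309, 170, 27.9 and 22.6. Among its opponents, BCL2L11, which encodes BIM, had 7 probe sets from 85.1 to 2165, 3 of them bright, and BID had 3 from 574 to 1242. BCL2 reached 592, BCL2L1, which encodes BCL-XL, 345, BAX 362, BAK1 329 and PMAIP1 309. BCL2A1, BCL2L2, BCL2L10 and BOK were below the floor. Among drug-linked genes the glucocorticoid receptor NR3C1 had 5 probe sets from 131 to 3199, the nuclear exporter XPO1 reached 6122 and cereblon, encoded by CRBN and bound by lenalidomide, read 459 and 298. The kinase PIM2 read 2137, against 330.0 for PIM1 and 283 for PIM3. The efflux pumps ABCB1 and ABCG2 read 19.4 and 34.2.

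The mitochondrial part of energy metabolism was often bright by its brightest probe sets. Of 77 genes of the respiratory chain and ATP synthase, 67 were bright and 5 below the floor, with a median log2 signal of 11.92. Without cross-hybridising probe sets the median was 9.55, with 48.4% of 64 genes bright, against 7.87% of all genes. By the mean of a gene's probe sets 49.4% were bright, against 5.31% of all genes. COX7C had 3 probe sets from 1656 to 10519, and ATP5F1A, the alpha subunit of ATP synthase, read 10136 and 8.4. The list was drawn by symbol and holds a pseudogene, ATP5MC2P1, at 41.5. Tissue-restricted isoforms were low: COX6A2 read 39.7 and COX4I2 38.3 (these and the pseudogene were named after their values were seen), COX7B2 13.3 and COX7A1 2.1. Genes of the TCA cycle had a median log2 signal of 9.82, with 12 of 26 bright, MDH1 at 5509 and MDH2 at 4777. The bright share was 31.6% of 19 genes without cross-hybridising probe sets and 19.2% by the mean. Pyruvate carboxylase PC read 4.5, the gluconeogenic PCK1 0.8, and the NADP-dependent IDH2 2523.

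Glycolysis split by isoform. Of 29 genes 9 were bright: LDHA (12258), GAPDH (3 probe sets, 10266 to 11118), LDHB (10467 and 8504), PGK1, PGAM1, TPI1, ALDOA, ENO1 and GPI. All 6 of those with several probe sets had a second bright one. Without cross-hybridising probe sets, however, 5.88% of the 17 genes left were bright, against 7.87% of all genes. Their median log2 signal was then 4.86, against 4.63 for all genes. The enzymes that start the pathway read lower, with HK2 at 578, HK1 at 175, PFKM at 729 and the glucose transporter SLC2A1 at 146. PKM, which encodes pyruvate kinase, read 176 and 42. The isoforms HK3, SLC2A2, SLC2A4, PGAM2 and PGK2, which are restricted to other tissues, were below the floor.

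Supply of amino acids and one-carbon units had 14 of 29 genes bright. The mitochondrial enzymes MTHFD2 and SHMT2 reached 4381 and 1996 and MTHFD1L 11.8. The cytosolic enzymes MTHFD1 and SHMT1 reached 1439.6 and 21.6, MTHFD1 on 1 of its 2 probe sets. PSAT1 of serine synthesis reached 1309.9, and PHGDH, the first enzyme of that pathway, read 123 on 1 probe set. The transporters SLC38A2 and SLC38A1 reached 4288 and 4001, SLC7A5 1020.0 and the cystine carrier SLC7A11 177. Asparagine synthetase ASNS read 1649.9 and 2.2, and argininosuccinate synthase ASS1 23.3. In sterol and fatty acid synthesis 8 of 24 were bright, with INSIG1 at 6652, IDI1 at 6558, FDPS at 4895 and SCD at 2268, while SQLE reached 239 and FASN 86.9.

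Genes of NAD synthesis, the pathway that the drug of this series targets, were near the level of genes at large as a list. Of 22 genes 3 were bright (13.6%, against 11.8% of all genes) and 5 were below the floor (22.7%, against 34.6%). The median log2 signal was 5.07 against 5.23 for all genes, and it lay above that of all genes by the mean or the median of a gene's probe sets and without cross-hybridising probe sets. NAMPT, which recycles nicotinamide, read 5473, 5224, 1090.5 and 171. The kinases NADK, which makes NADP, and NMRK1, which uses nicotinamide riboside, reached 2541 and 1360.5. Enzymes of the other routes varied. NAPRT, which starts from nicotinic acid, read 62.0 and 1.6, and QPRT, which enters from tryptophan, 30.1 and 5.4. Earlier on the tryptophan route, TDO2 read 324 and 1 and KMO reached 77.8, whereas IDO1, IDO2, AFMID, KYNU and HAAO stayed below 64. NADSYN1, which finishes both of those routes, had 4 probe sets from 6.6 to 168. The adenylyl transferases NMNAT1, NMNAT2 and NMNAT3, of which cells need at least one, reached 37.5, 10.1 and 58.5. NAMPT, with 3 bright probe sets, was the only gene of the list with more than 1. Of 18 NAD-consuming genes 2 were bright (11.1%, against 11.8% of all genes), PARP1 (4779.7) and TNKS2 (1244). SIRT1 read 619 and CD38 575. BST1 and SIRT4 were below the floor (11.1%, against 34.6%). The median log2 signal of this list was 7.06 against 5.23 for all genes. Among genes with at least 2 probe sets it was 6.26 against 6.84.

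Markers of cell types that the culture should not hold were near background, with exceptions. Of 21 T and NK cell genes 13 were below the floor, and TRAT1 (335) was the only one to reach 64. CD3D read 9.9, CD2 3.6, CD8A 15.8 and NKG7 1.6. All 15 myeloid genes were below 64, with CD14 at 2.6 and LYZ at 5.7. All 16 epithelial, all 16 muscle and all 18 liver and gluconeogenesis genes were below 64 too, with EPCAM at 6.2 and ALB at 5.9. Among 20 stromal and endothelial genes FN1, the fibronectin gene, had 7 probe sets from 9.3 to 902, PECAM1 reached 138 and COL1A1 102. Of 17 neuronal genes TUBB3, a tubulin, was bright at 1767 with its other probe set at 1013. The globin genes HBD (1842, 1 probe set) and HBB (340.1, 323, 282 and 38.1) stood above the receptor genes, while the erythroid factors GATA1 (19.9), KLF1 (16.7) and ALAS2 (20) did not. HBB and HBD are near-identical in sequence, so their signals cannot be told apart with certainty. Among 26 cancer testis and related antigens 15 were below the floor and 2 were bright, MAGEA1 (2579) and the widely expressed MAGED1 (1448).

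Bright genes differed from dim ones in the base composition of their promoters. RefSeq promoter windows were matched by gene identifier for 15357 of the 19775 genes. The ratio of observed to expected CpG, the dinucleotide of CpG islands, was above 0.6 in 40.3% of 4891 promoters of genes below the floor, 76.1% of 8463 between and 89.8% of 2003 of bright genes. The motif TATAAA was in 14%, 6.38% and 6.04% of them, and in 12% of all promoters. Among genes above the floor its share was lowest, 4.02%, at a log2 signal of 7 to 8, and 12.8% in the 125 promoters at 13 or more. With the mean of the probe sets in place of the brightest, the CpG shares were 40.4%, 77.8% and 89.7%. The lists followed different compositions: 98.0% of ribosomal and 96.9% of translocon promoters passed 0.6, against 47.4% of 19 in plasma cell surface and secretory identity, 32% of 25 in the B cell programme and 3.95% of 76 in the receptor families. These shares are across genes, which are not independent replicates.

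**Figure D3:**
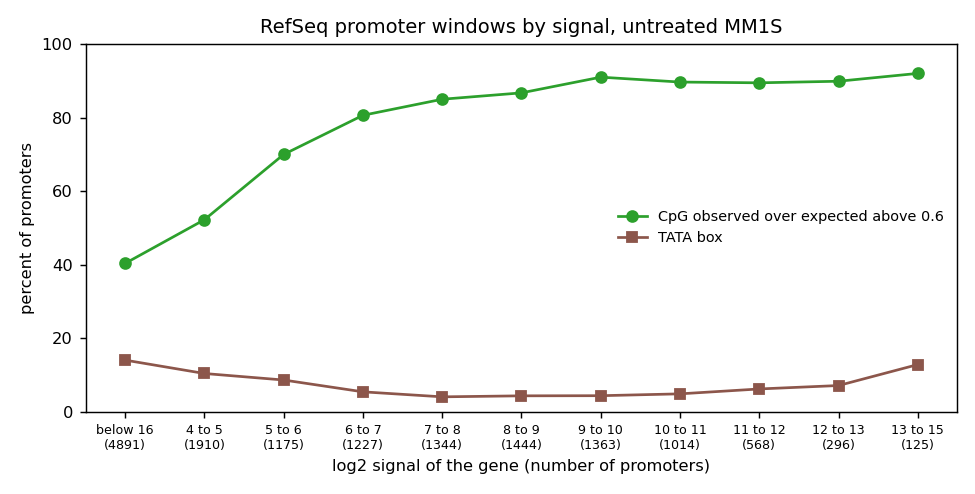
Percent of RefSeq promoter windows (vertical axis) by log2 signal of the gene (horizontal axis, number of promoters in brackets). Circles are windows with a CpG observed over expected ratio above 0.6. Squares, labelled TATA box, are windows with the letters TATAAA anywhere on either strand. The CpG share runs from 40.3% below a signal of 16 to 92.0% at a log2 signal of 13 or more.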

How the data were processed

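The column of the untreated array was taken from the authors' deposited value table. Its values are intensities on a linear scale, deposited from 0.1 to 20257.9; the summary method and scaling are not given in the sources used here. Of 54675 probe sets, 62 Affymetrix controls were set aside. Platform annotation gave 1 symbol to 41091, several to 1801 and none to 11721, and the 41091 were used. A gene's signal is that of its brightest probe set, which favours genes with many, and log2 values have a floor of 16. The rule for named genes allowed the 40 highest genes, any member of a list of up to 60 measured genes, the 5 highest and 5 lowest of longer lists, and the 10 highest receptors. The members and lists were chosen with earlier results of these data known, the level of 64 and some of the motifs after values were seen. Promoters are RefSeq windows matched by gene identifier. The code for the choice of probe set and the motif search was checked on simulated data. There the brightest probe set held the true level by design, so the choice itself was not tested. Python 3.11.15, numpy 2.4.6, pandas 2.3.3 and matplotlib 3.10.9 were used. The number of arrays, 1, limits the precision.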

Additional observations from a re-analysis of the deposited data

How the results depend on the processing

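No paired analysis was possible because each group has 1 array, and for the same reason no replicate could be left out. A list median was counted as moved beyond 1.67 (log2), the SD between probe sets, and a count beyond 1.5 times. Genes below the floor numbered 4298 with a floor of 8, and 2090 among genes with at least 2 probe sets. Bright genes numbered 1051 by the mean and 1167 by the median of a gene's probe sets, and 1321 without cross-hybridising probe sets. By the mean, median log2 signals were 8.39 for the markers of the line, 7.31 for plasma cell factors, 6.41 for translocation genes, 6.85 for mutated genes, 7.78 for cyclins, 7.92 for ER-associated degradation, 11.53 for ribosomal proteins, 9.76 for translation factors, 9.72 for the respiratory chain, 7.74 for one-carbon supply and 9.65 for housekeeping genes. By the median they were 8.74 for the markers, 7.19 for plasma cell factors, 6.41 for translocation genes, 6.74 for mutated genes, 7.10 for cyclins, 7.92 for ER-associated degradation, 7.74 for one-carbon supply and 6.25 for sterol synthesis. Without cross-hybridising probe sets they were 6.63 for translocation genes, 8.43 for ribosomal proteins, 9.13 for translation factors, 9.55 for the respiratory chain, 4.86 for glycolysis, 7.49 for one-carbon supply, 7.70 for class I and 5.77 for class II. With probe sets of several genes they were 7.42 for immunoglobulins and 9.98 for noncoding RNAs, and with at least 2 probe sets 6.47 for class II and 9.25 for noncoding RNAs. Beside the median of all genes, 30 of 42 lists lay above it; B cell, immunoglobulin and NAD synthesis lists changed side by the mean and by the median, immunoglobulin and NAD synthesis lists without cross-hybridising probe sets, and B cell, immunoglobulin, NAD consumption and class II lists among genes with at least 2 probe sets. These settings change which probe sets are read; the cause of each move was not tested.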

Other observations

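Several of the highest signals belonged to genes outside the lists, chosen here after their values were seen. TMSB4X, which encodes the actin-binding thymosin beta 4, read 15848. COX1 and COX2, as the annotation names them, read 15455 and 15139. HSPD1, the mitochondrial chaperonin, had 5 probe sets from 16.5 to 14267. The ferritin light chain FTL read 12809 and 9725, superoxide dismutase SOD1 12578 and ornithine decarboxylase ODC1, the first enzyme of polyamine synthesis, 11502. NPM1, a nucleolar chaperone, had 3 probe sets from 5923 to 12174.

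Lambda-type sequences appeared again outside the constant regions. IGLL3P, annotated as a pseudogene, read 14453 on 1 probe set, and IGLV1-44, a lambda variable gene, read 11685 on 1 and at most 20 on its other 5. HUWE1, a ubiquitin ligase, read 13374 on its brightest probe set and 503, 61.4, 16.4 and 6.7 on the others, so its place among bright genes rests on 1 probe set.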
